A study of Homo sapiens with 3 samples.

Results

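The screen used a genome-wide library of single guide RNAs (sgRNAs) that also carried guides against microRNA genes. These microRNA sgRNAs were taken as every row of the count tables whose target name starts with hsa-, and numbered 6835 of 119461 sgRNAs, against 1823 of 21815 targets. All 6835 carry names that start with HGLibA, the first of the parts of the GeCKOv2 library. Of the 1823 microRNAs, 1560 had 4 sgRNAs in the tables, 123 had 3, 86 had 2 and 54 had 1. The cells were Huh-7, an established human hepatoma line, transduced with the library at a target MOI of 0.3. All libraries therefore carry Cas9 and an sgRNA, and there was 1 library per condition. The conditions were untreated cells, survivors of 0.1 µM RSL-3 for 24 h, and survivors of 0.03 µM RSL-3 together with 50 mM linoleic acid for 24 h (RSL-3/LA), the doses being those of the labels. Survivors were expanded and put through the selection repeatedly. The sources differ on the number of rounds, and the survivor pools may not have had the same number, so dose, linoleic acid and rounds cannot be told apart between them. The 3 libraries are called the untreated, RSL-3 and RSL-3/LA pools. RSL-3 inhibits GPX4, which detoxifies lipid peroxides, and linoleic acid is a polyunsaturated fatty acid that adds substrate for peroxidation. The counts are of integrated DNA and hold no expression values, so the liver identity of the line could not be checked against markers. The comparison asks which microRNA sgRNAs became more common among cells that outlived ferroptosis.

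A microRNA gene is transcribed into a primary RNA that folds into a hairpin. DROSHA with DGCR8 cuts the hairpin out in the nucleus, DICER1 trims it to a short duplex in the cytoplasm, and an Argonaute protein keeps one strand and uses it to find messenger RNAs. The seed, bases 2 to 8 of the mature strand, sets most of that targeting, so microRNAs with the same seed are grouped as a family. Hepatocytes are known for very high levels of miR-122, and miR-33a and miR-33b lie in introns of the sterol regulators SREBF2 and SREBF1.

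The sequences of the microRNAs on which the results turn are given first. They are RefSeq entries of the GRCh38.p14 build. Of the 1823 names, 1785 matched a RefSeq symbol and 10 an older name, and 1634 had a mature sequence. Capitals mark the seed. The leading microRNAs of the RSL-3 pool were these, save mir-30b (2158 counts), whose sequence is not given:
miR-3666: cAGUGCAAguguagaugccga
miR-668-5p: uGCGCCUCgggugagcaug
miR-4636: aACUCGUGuucaaagccuuuag
miR-941: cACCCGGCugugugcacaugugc

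Of the leaders of the RSL-3/LA pool, mir-4525 (1600 counts) and mir-760 (1486) stood above mir-500b (1461) but are not shown. Those shown, followed by the 3 with more than 1 enriched sgRNA and by the 1 enriched in both survivor libraries, have other seeds:
miR-502-3p: aAUGCACCugggcaaggauuca
miR-502-5p: aUCCUUGCuaucugggugcua
miR-500b-3p: gCACCCAGgcaaggauucug
miR-6892-3p: uCCCUCUCccaccccuugcag
miR-5000-3p: uCAGGACAcuucugaacuugga
miR-496: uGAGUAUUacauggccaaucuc
miR-367-3p: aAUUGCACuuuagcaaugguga
miR-4796-3p: uAAAGUGGcagaguauagacac
miR-7851-3p: uACCUGGGagacugagguugga
miR-1913: uCUGCCCCcuccgcugcugcca

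The liver microRNAs with an enriched sgRNA and the sterol-linked pair miR-33a and miR-33b are shown because of their known place in liver and in sterol metabolism:
miR-122-5p: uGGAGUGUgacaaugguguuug
miR-192-5p: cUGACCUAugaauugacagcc
miR-193a-3p: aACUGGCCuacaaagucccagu
miR-365a-3p: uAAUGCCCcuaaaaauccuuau
miR-33a-5p: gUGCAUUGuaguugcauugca
miR-33b-5p: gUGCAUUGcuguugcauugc

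An sgRNA cuts the hairpin's DNA, so a few hairpins are given with their position on GRCh38.p14: those with the most counts in each survivor library (mir-3666 and mir-502), the neighbour mir-500b of mir-502, and mir-367 and mir-122. Here capitals mark the mature arms listed by RefSeq:
mir-3666, chr7:114653345-114653455, plus strand: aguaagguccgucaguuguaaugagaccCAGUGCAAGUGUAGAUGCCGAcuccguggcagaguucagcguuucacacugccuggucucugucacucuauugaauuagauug
mir-502, chrX:50014598-50014683, plus strand: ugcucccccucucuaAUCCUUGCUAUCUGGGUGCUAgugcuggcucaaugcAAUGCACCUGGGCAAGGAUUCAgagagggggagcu
mir-500b, chrX:50010672-50010750, plus strand: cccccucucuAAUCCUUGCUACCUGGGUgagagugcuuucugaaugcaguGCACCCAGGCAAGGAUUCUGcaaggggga
mir-367, chr4:112647874-112647941, minus strand: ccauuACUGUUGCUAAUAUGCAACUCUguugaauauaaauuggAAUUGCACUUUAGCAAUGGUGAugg
mir-122, chr18:58451074-58451158, plus strand: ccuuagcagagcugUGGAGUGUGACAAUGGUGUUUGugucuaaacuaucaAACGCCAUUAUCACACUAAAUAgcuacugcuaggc

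The microRNA sgRNAs made up 5.72% of the sgRNAs. In the untreated pool they held 83828 counts, or 5.71% of the library (95% interval 5.68 to 5.75%). In the RSL-3 pool they held 30085 counts, or 2.05% (2.03 to 2.07%). In the RSL-3/LA pool they held 70818 counts, or 4.77% (4.73 to 4.80%). Their share was thus near their number in the untreated pool and lower in both survivor libraries, more so after RSL-3 alone. Intervals are exact (Clopper-Pearson) and express counting error alone, because reads made by PCR do not each stand for a molecule. No condition was replicated, so every difference is between single libraries and carries no test. DHCR7 sgRNAs held a large share of the RSL-3 library, and with them left out of the total the microRNA share there was 3.12%.

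Most microRNA sgRNAs were not seen even before selection. In the untreated pool 1079 of 6835 (15.8%, 14.9 to 16.7%) had at least 1 count, against 17.2% of the gene sgRNAs with HGLibA names and 16.0% of all sgRNAs. Within the RSL-3 pool 164 (2.40%) had a count, and in the RSL-3/LA pool 270 (3.95%). By microRNA, 976 of 1823 (53.5%) had no sgRNA with a count in the untreated pool, 640 had 1, 183 had 2, 23 had 3 and 1 had 4. That microRNA was mir-329-2, of the imprinted chromosome 14 cluster, with 186, 177, 118 and 1 counts in the untreated pool and 0 in both survivor libraries. An sgRNA with 0 counts could still hold up to 0.000205%, 0.000204% and 0.000202% of the untreated, RSL-3 and RSL-3/LA libraries.

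The survivors' counts sat on few sgRNAs. In the untreated pool the 10 most common microRNA sgRNAs held 4.24% of all microRNA counts. After RSL-3 alone the 10 most common held 76.0%, and in the RSL-3/LA pool 47.6%. The effective number of microRNA sgRNAs, the exponential of the Shannon entropy of their counts, was 703 in the untreated pool, 17.2 in the RSL-3 pool and 62.2 in the RSL-3/LA pool. The survivor pools were therefore narrow, the RSL-3 pool most of all.

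Counts were scaled to each library's total as CPM. The term enriched was used for an sgRNA with a survivor level of at least 100 CPM that was also 10-fold or more above its untreated level, where fewer than 3 untreated counts were taken as 3. In the RSL-3 pool 20 microRNA sgRNAs of 20 microRNAs were enriched, which is 0.293% of them (0.179 to 0.452%). The background was 0.419% of all sgRNAs, 0.465% of HGLibA gene sgRNAs and 1.10% of non-targeting sgRNAs. Within the RSL-3/LA pool 75 sgRNAs of 72 microRNAs were enriched, or 1.10% (0.864 to 1.37%), against 1.20% of all sgRNAs, 1.24% of HGLibA gene sgRNAs and 2.90% of non-targeting sgRNAs. The share called among microRNA sgRNAs was thus not above that of the library at large. It was below that of non-targeting sgRNAs, whose intervals were 0.550 to 1.96% and 1.95 to 4.14%, and of which 29.0% had a count before selection. By target, 20 of 1823 microRNAs (1.10%) had an enriched sgRNA after RSL-3, against 1.36% of HGLibA gene targets and 2.26% of all targets, and 72 (3.95%) did after RSL-3/LA, against 3.60% and 6.32%. Targets of all kinds differ in their number of sgRNAs, genes having mostly 6 in all and microRNAs 4. HGLibA names covered 55931 gene sgRNAs for 18880 targets, fewer per target than for microRNAs. Which library had more enriched microRNA sgRNAs depended on the scaling: with median-of-ratios size factors the numbers were 55 in the RSL-3 pool and 15 in the RSL-3/LA pool. With trimmed mean of M-values, a further scaling, they were 24 and 58. The enriched sgRNAs held 24936 of the microRNA counts in the RSL-3 pool (82.9%) and 60524 in the RSL-3/LA pool (85.5%).

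Most enriched sgRNAs were absent from the untreated counts. Within the RSL-3 pool 17 of the 20 had 0 untreated counts, 2 had 1 to 9 and 1 had 10 or more. After RSL-3/LA the split was 65, 2 and 8 of 75. The library at large was alike: 408 of its 500 enriched sgRNAs after RSL-3 alone had 0 untreated counts. With linoleic acid added, 1241 of 1428 did. The absence was thus not particular to microRNA sgRNAs. Folds for an untreated count of 0 are therefore lower bounds against 3 untreated counts. At the edge of the call in the RSL-3 pool, mir-4284 (108 CPM) and mir-5089 (116 CPM) were just inside and mir-7855 (94.0 CPM) and mir-380 (81.8 CPM) just outside. In the RSL-3/LA pool mir-609 and mir-133a-1 (108 CPM each) were just inside, and mir-6505 (99.6 CPM) and mir-3187 (98.3 CPM) just outside. A further 6 sgRNAs in the RSL-3 pool and 8 in the RSL-3/LA pool reached 100 CPM but not the fold, since they were already common before selection.

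Support by more than 1 sgRNA of the same microRNA was rare. After RSL-3 alone none of the 1769 microRNAs with at least 2 sgRNAs had 2 enriched, where the background was 0.0290% of all such targets and 0.0214% of those among HGLibA gene sgRNAs. Within the RSL-3/LA pool 3 microRNAs had 2 enriched sgRNAs (0.170%), against 0.232% of all such targets and 0.0642% of those among HGLibA gene sgRNAs. Gene targets had fewer HGLibA sgRNAs each than microRNAs, so these shares are not like for like. The 3 were mir-367, mir-4796 and mir-7851. Under median-of-ratios scaling both calls of mir-367 and of mir-4796 and 1 of those of mir-7851 were lost. Trimmed mean of M-values kept both of mir-7851 and 1 each of mir-367 and mir-4796.

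mir-367 belongs to the mir-302 cluster, which is known for its activity in pluripotent stem cells. After RSL-3/LA 1 of its 4 sgRNAs had 628 counts and another 173, and all 4 had 0 counts in the untreated pool and in the RSL-3 pool. The lower bounds were 207-fold and 56.9-fold. Its 4 cluster neighbours had none of the RSL-3/LA counts. Over the 5 microRNAs of the cluster, 20 sgRNAs had 317 counts in the untreated pool, 46 in the RSL-3 pool and 801 in the RSL-3/LA pool, and the 801 were those of mir-367. LARP7, the gene around the cluster, had 74, 21 and 0 counts over 6 sgRNAs of its own.

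mir-7851 had 725 and 241 counts in the RSL-3/LA pool for 2 of its 4 sgRNAs, and 0 in the other libraries. The bounds were at least 239-fold and at least 79.3-fold. mir-4796 had 479 and 176 counts in the RSL-3/LA pool for 2 sgRNAs with 0 counts elsewhere, and its bounds were at least 158-fold and at least 57.9-fold. A different sgRNA of mir-4796 had 136 counts in the untreated pool and 0 in both survivor libraries. The sgRNAs of mir-4796 thus went in opposite directions within the same library.

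With any count taken as detection, 5 microRNAs had 2 detected sgRNAs in the RSL-3 pool (0.283%, 0.0918 to 0.658%) and 17 had 2 or more in the RSL-3/LA pool (0.961%, 0.561 to 1.53%). The corresponding shares among HGLibA gene targets, which had fewer sgRNAs each, were 0.278% and 0.589%, and the interval for RSL-3/LA included the latter. Of the 5 in the RSL-3 pool, mir-4636 had 1747 and 50 counts, mir-30b had 2135 and 23, and mir-8081 had 723 and 23. mir-3976 had 265 and 1, and mir-3657 had 82 and 22. The second sgRNA was thus at most 3.18% of the first, except in mir-3657, where it was 26.8%. The second sgRNA of mir-4636 made it the 1 microRNA with 2 calls in the RSL-3 pool at a level of 30 CPM. In the RSL-3/LA pool mir-4496 was the 1 microRNA with 3 detected sgRNAs, at 108, 76 and 36 counts, all with 0 counts in the untreated pool and all below 100 CPM. mir-6085 had 533 and 85 counts there and 251 in the untreated pool.

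Within the RSL-3 pool 1 sgRNA of mir-3666 stood above the rest. It had 1 count in the untreated pool, 11393 in the RSL-3 pool and 3 in the RSL-3/LA pool, which was 0.776% of the RSL-3 library. The ratio to the untreated pool was 11387 with a 95% counting interval from 2043 to 449790, wide because it rests on 1 untreated count. The other 3 sgRNAs of mir-3666 had 40 counts together in the untreated pool and 0 in both survivor libraries. mir-3666 lies within FOXP2, whose own 6 sgRNAs had 0 counts in all libraries.

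mir-668, of the imprinted chromosome 14 cluster, came next. Its leading sgRNA had 0 counts in the untreated pool, 3315 in the RSL-3 pool and 0 in the RSL-3/LA pool, at least 1104-fold. A different sgRNA of mir-668 had 80 counts in the untreated pool and 0 in survivors. mir-30b, of the mir-30 family that is abundant in many epithelia, had an sgRNA with 0, 2135 and 1 counts in the same order, at least 711-fold. mir-4636 had an sgRNA with 0, 1747 and 1 counts, at least 582-fold, and mir-941-1 one with 0, 1365 and 2 counts, at least 455-fold. These 4 were high after RSL-3 alone and at 0 to 2 counts after RSL-3/LA.

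The remaining microRNAs among the 10 with most counts in the RSL-3 pool were mir-8081, mir-135a-1, mir-573, mir-921 and mir-4752. Their leading sgRNAs had 723, 709, 624, 449 and 399 counts in the RSL-3 pool, in that order, and at most 2 in the RSL-3/LA pool. The sgRNA of mir-921 was the 1 enriched RSL-3 sgRNA with 10 or more untreated counts: it had 26 in the untreated pool and 449 in the RSL-3 pool, a ratio of 17.3 (11.6 to 26.7). mir-573 shows how sgRNAs to 1 microRNA parted. Of its 4 sgRNAs, 3 had 137, 131 and 0 counts in the untreated pool and 0, 0 and 624 in the RSL-3 pool, and the other had 0 in every library.

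Within the RSL-3/LA pool 3 sgRNAs held 33.2% of the microRNA counts. That of mir-502 had 0 counts in the untreated pool, 4 in the RSL-3 pool and 9024 in the RSL-3/LA pool, at least 2969-fold. That of mir-6892 had 174, 4 and 8341 counts, a ratio of 47.3 (40.7 to 55.3). That of mir-5000 had 0, 1 and 6122 counts, at least 2014-fold. All 3 were high after RSL-3/LA and at 4 counts or fewer after RSL-3. Of these 3, only the sgRNA of mir-6892 was common before selection.

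The other leading microRNAs of the RSL-3/LA pool were mir-496, mir-4525, mir-760, mir-500b, mir-4656, mir-3680-1 and mir-5579. mir-496, like mir-668 of the chromosome 14 cluster, had an sgRNA with 0, 0 and 2009 counts, at least 661-fold. mir-4525 had one with 0, 1 and 1600 counts, at least 526-fold, while another of its sgRNAs had 176 counts in the untreated pool and 0 in survivors. mir-760 had 0, 0 and 1486 counts, and mir-500b 0, 0 and 1461. The sgRNA of mir-4656 had 68 counts in the untreated pool, 0 in the RSL-3 pool and 1351 in the RSL-3/LA pool, a ratio of 19.6 (15.4 to 25.4), which median-of-ratios scaling brought to 5.24. Its call was kept with trimmed mean of M-values. mir-3680-1 had 1, 1 and 1241 counts, a ratio of 1225 (219 to 48426) to its 1 untreated count. mir-5579 had 0, 0 and 1054 counts.

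A measured ratio, rather than a bound, was to be had for 10 enriched RSL-3/LA sgRNAs. Those with 10 or more untreated counts, 8 in number, are taken here. Beside mir-6892, mir-4656 and mir-181b-1 these were 5 sgRNAs that had 0 counts in the RSL-3 pool and were chosen after their values were seen. That of mir-3142 had 10 untreated and 666 RSL-3/LA counts, a ratio of 65.7 (35.5 to 138). That of mir-4469 had 13 and 501 counts, a ratio of 38.0 (22.0 to 72.0), and that of mir-642a had 17 and 517, a ratio between 18.6 and 51.9. The sgRNAs of mir-3160-1 (18 and 274 counts) and mir-7846 (29 and 433 counts) had ratios of 15.0 (9.33 to 25.7) and 14.7 (10.1 to 22.3). All 8 had at most 4 counts after RSL-3. Of the 8 calls, 1 was kept under median-of-ratios scaling, that of mir-6892, and 6 were kept with trimmed mean of M-values.

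The untreated library was the reference of both comparisons, so they are not independent, and their values are given side by side. Of the 20 sgRNAs enriched in the RSL-3 pool, 12 had 0 counts in the RSL-3/LA pool, 7 had 1 to 10 and 1 had more. Of the 75 enriched in the RSL-3/LA pool, 60 had 0 counts in the RSL-3 pool, 14 had 1 to 10 and 1 had more. Thus 8 of the former 20 and 15 of the latter 75 had a count in the other survivor library, against 3.95% and 2.40% of all microRNA sgRNAs. Save for mir-1913, those counts were at most 3 (mir-3666) and at most 9 (mir-210). The median count of detected microRNA sgRNAs was 56.0 in the RSL-3/LA pool and 22.5 in the RSL-3 pool. The sgRNA above 10 counts on both sides was that of mir-1913, with 0 counts in the untreated pool, 187 in the RSL-3 pool and 219 in the RSL-3/LA pool. The bounds were at least 62.3-fold and at least 72.1-fold, and the call in the RSL-3/LA pool was lost under median-of-ratios scaling. Trimmed mean of M-values kept both calls. The other 3 sgRNAs of mir-1913 had 0 counts in every library, and so did the 6 sgRNAs of RPS6KA2, within which it lies.

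The other sgRNAs to the same microRNAs were mostly at 0. The 20 microRNAs enriched in the RSL-3 pool had 59 further sgRNAs, of which 55 had 0 counts there and the highest had 50. The 72 enriched in the RSL-3/LA pool had 200 further sgRNAs, of which 195 had 0 counts there and the highest had 65. Further sgRNAs are those not enriched, so the second enriched ones of mir-367, mir-4796 and mir-7851 are left out. A count was thus found for 6.78% and 2.50% of them, against 2.40% and 3.95% of all microRNA sgRNAs, enriched ones included. Of these further sgRNAs, 11 (RSL-3) and 26 (RSL-3/LA) had 10 or more untreated counts, and 11 and 25 of them were at 0 in the survivors, near the 95.3% and 93.9% of all such microRNA sgRNAs. Save for mir-367, mir-4796 and mir-7851 after RSL-3/LA, each enriched microRNA had 1 enriched sgRNA per library.

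Liver microRNAs were examined as a list of 38 microRNAs with 150 sgRNAs. In the untreated pool 16.0% of these had a count, against 15.8% of all microRNA sgRNAs. After RSL-3 alone 1 of the 150 was enriched (0.667%), and in the RSL-3/LA pool 3 were (2.00%), against 0.293% and 1.10% of all microRNA sgRNAs. The list is small, and a difference of 1 or 2 sgRNAs sets these shares. With median-of-ratios scaling 3 were enriched in the RSL-3 pool and 1 in the RSL-3/LA pool, and with trimmed mean of M-values 1 and 3.

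mir-122, which makes the most abundant microRNA of hepatocytes, had 1 sgRNA with 0 counts in the untreated pool, 0 in the RSL-3 pool and 530 in the RSL-3/LA pool, at least 174-fold. Its other 3 sgRNAs had 0 counts in every library. mir-193a had 1 sgRNA with 0, 0 and 1020 counts, at least 336-fold, and 3 sgRNAs with 0 throughout. Its relative mir-193b, with the same seed, had 0, 49 and 0 counts. Median-of-ratios scaling ended the call of mir-122 and kept that of mir-193a. Trimmed mean of M-values kept both.

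mir-365a had an sgRNA with 0, 1 and 332 counts, at least 109-fold, while another had 72 counts in the untreated pool and 0 in survivors. That call, too, was lost under median-of-ratios scaling and kept with trimmed mean of M-values. mir-192, which is processed in liver and gut epithelium together with mir-194-2, had an sgRNA with 0, 238 and 0 counts, at least 79.3-fold in the RSL-3 pool. A different sgRNA of mir-192 had 114, 0 and 0 counts. mir-194-2 had 437, 23 and 0 counts over its 4 sgRNAs, and had no enriched sgRNA.

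mir-148a, abundant in liver and known to act on the LDL receptor, had 149 counts in the untreated pool, 0 in the RSL-3 pool and 268 in the RSL-3/LA pool from 1 sgRNA, a ratio of 1.78 (1.45 to 2.18), under the fold required. Other liver microRNAs were common before selection and absent after it. mir-146b had 218 untreated counts, mir-22 had 192, mir-100 had 152, mir-101-1 had 79 and mir-125b-1 had 71, and each had 0 in both survivor libraries. mir-24-1 had 101, 3 and 0 counts, the 3 from an sgRNA with 0 untreated counts.

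The sterol and lipid list held 35 microRNAs with 138 sgRNAs, of which 18.8% had a count in the untreated pool. None was enriched in the RSL-3 pool and 2 (1.45%) were in the RSL-3/LA pool, those of mir-122 and mir-335, against 0.293% and 1.10% of all microRNA sgRNAs. With median-of-ratios scaling 1 and 0 were, and with trimmed mean of M-values 0 and 2. mir-33a, which acts on the cholesterol exporter ABCA1, had 0 counts for all 4 sgRNAs in every library and so could not be assessed. mir-33b had 111 counts in the untreated pool, 12 in the RSL-3 pool and 0 in the RSL-3/LA pool. The 12 came from an sgRNA with 1 untreated count, and the sgRNA with 110 had 0 in survivors. The sgRNAs of their host genes SREBF2 and SREBF1 had 0 counts in all libraries.

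mir-335, which lies in MEST, had an sgRNA with 0 counts in the untreated pool and 290 in the RSL-3/LA pool, at least 95.4-fold, and 55 counts over its sgRNAs in the RSL-3 pool. mir-34a, which p53 induces, had 258, 0 and 39 counts, of which 30 came from an sgRNA with 0 untreated counts. mir-758 had 304 untreated counts, mir-27a 247, mir-185 129 and mir-103a-1 78, and each had 0 in both survivor libraries. mir-370 had 216, 0 and 5 counts. Of the list's 17 sgRNAs with 10 or more untreated counts, 17 had 0 counts in the RSL-3 pool and 13 (76.5%) had 0 in the RSL-3/LA pool, against 95.3% and 93.9% of all such microRNA sgRNAs. The 76.5% rests on few sgRNAs. Of those kept, the sgRNAs of mir-148a (149 to 268 counts) and mir-145 (48 to 114) rose. Those of mir-34a (258 to 9) and mir-370 (159 to 5) fell.

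The list of microRNAs linked to ferroptosis held 39 microRNAs with 148 sgRNAs, of which 17.6% had a count in the untreated pool. In the RSL-3 pool 1 (0.676%) was enriched, that of mir-30b, and in the RSL-3/LA pool 2 (1.35%), those of mir-335 and mir-23a, against 0.293% and 1.10% of all microRNA sgRNAs. With median-of-ratios scaling 4 and 0 were, and with trimmed mean of M-values 1 and 2. The sgRNA of mir-23a had 0, 0 and 228 counts, at least 75.0-fold. The other hairpins of its cluster, mir-27a and mir-24-2, had counts in the untreated pool and 0 in the RSL-3/LA pool.

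Members that were common before selection were found higher, lower or at 0 after it. Of the list's 21 sgRNAs with 10 or more untreated counts, 19 (90.5%) had 0 counts in the RSL-3 pool. In the RSL-3/LA pool 20 (95.2%) had 0. The shares of all such microRNA sgRNAs were 95.3% and 93.9%. mir-7-3, which makes a microRNA that acts on EGFR, had 160, 358 and 0 counts, a ratio of 2.24 (1.85 to 2.71) in the RSL-3 pool. mir-7-2, which makes the same mature strand, had 247, 0 and 101 counts, and the 101 came from an sgRNA with 0 untreated counts. mir-18a, of the oncogenic mir-17 cluster, had 79, 29 and 240 counts, a ratio of 3.00 (2.32 to 3.92) in the RSL-3/LA pool. mir-92a-1, of the same cluster, had 189, 0 and 39 counts, again from different sgRNAs. mir-4715, mir-375, mir-124-3 and mir-26b had 233, 169, 162 and 117 untreated counts, in that order, and 0 in survivors. mir-124-2 had 224, 16 and 0, and the 16 came from an sgRNA with 0 untreated counts.

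By name stem, 40 families had 10 or more sgRNAs. Within the RSL-3 pool 2 of them had an enriched sgRNA, where 0.293% of all microRNA sgRNAs were enriched. No background share was computed for whole families. The mir-30 family, with 24 sgRNAs to 6 microRNAs, had 33, 2158 and 43 counts in the order untreated, RSL-3 and RSL-3/LA, and mir-30b held all of the 2158. The mir-135 family, with 12 sgRNAs, had 229, 709 and 2 counts, again from 1 sgRNA.

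After RSL-3/LA 9 of the 40 families had an enriched sgRNA, where 1.10% of all microRNA sgRNAs were enriched. With median-of-ratios scaling the numbers of such families were 6 after RSL-3 and 0 after RSL-3/LA, and with trimmed mean of M-values 2 and 4. The primate mir-548 family was the largest, with 229 sgRNAs to 68 microRNAs, and had 2107, 45 and 1014 counts with 2 enriched sgRNAs. Its share of enriched sgRNAs was below that of all microRNA sgRNAs, although it held the most enriched sgRNAs of these families. The mir-181 family had 174, 1 and 578 counts over 24 sgRNAs, the mir-200 family 500, 1 and 442 over 12, the mir-376 family 457, 0 and 314 over 14, and the mir-23 family 0, 55 and 277 over 12. Each of these 4 had 1 enriched sgRNA. The let-7 family, the classical repressor of LIN28 and RAS, had 724, 9 and 186 counts over 44 sgRNAs, and its 186 counts came from let-7f-2. The mir-378 family, also of 44 sgRNAs, had 600, 1 and 0 counts.

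By seed, 3 of 348 groups held 2 enriched sgRNAs in the RSL-3/LA pool, and 0 did with median-of-ratios scaling or with trimmed mean of M-values. The share enriched over all microRNA sgRNAs was 1.10%, and no background was computed for groups of like size. Groups were built from the mature sequences at hand, which 1634 microRNAs had, so a group can lack members. mir-30b was not in these groups. The members with an enriched sgRNA, and miR-92a-3p as the best known carrier of the miR-367 seed, are these, with the seed in capitals:
miR-181b-5p: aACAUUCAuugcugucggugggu
miR-4262: gACAUUCAgacuaccug
miR-519b-5p: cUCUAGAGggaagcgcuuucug
miR-526a: cUCUAGAGggaagcacuuucug
miR-92a-3p: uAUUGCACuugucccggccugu

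The seed ACAUUCA is shared by the mir-181 family and mir-4262, 7 microRNAs with 28 sgRNAs and 470, 1 and 1119 counts. mir-181b-1 had an sgRNA with 40, 0 and 457 counts, a ratio of 11.3 (8.15 to 16.0), and hsa-mir-4262 one with 0, 0 and 541 counts beside another with 296, 0 and 0. The seed UCUAGAG is shared by 11 microRNAs of the chromosome 19 cluster, with 32 sgRNAs and 126, 71 and 594 counts. mir-519b and mir-526a-2 each had 1 enriched sgRNA, with 172 and 206 counts in the RSL-3/LA pool and 0 in the untreated pool. Hairpins of this cluster are much alike, and whether their sgRNAs share target sites was not tested. In the seed AUUGCAC, both enriched sgRNAs were those of mir-367, and its 6 other members had 189, 0 and 39 counts over 22 sgRNAs. The seed of mir-3666, AGUGCAA, is that of the mir-130 and mir-301 families, whose 5 members listed had 82, 0 and 0 counts over 19 sgRNAs.

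By position, the X-linked cluster within CLCN5 held the most microRNA counts of the RSL-3/LA pool that came from 1 place. Its 8 microRNAs (mir-188, mir-362, mir-500a, mir-500b, mir-501, mir-502, mir-532 and mir-660) had 31 sgRNAs with 352 counts in the untreated pool, 4 in the RSL-3 pool and 10517 in the RSL-3/LA pool, or 14.9% of the microRNA counts there. The sgRNAs of mir-502 (9024) and mir-500b (1461) gave nearly all of it. mir-501 carries the same miR-502-3p seed AUGCACC, and its 4 sgRNAs had 0 counts in every library. The 6 sgRNAs of CLCN5 itself had 99, 0 and 1 counts.

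The mir-141 and mir-200c hairpins lie side by side and hold epithelial cells in their state through ZEB1 and ZEB2. Their 8 sgRNAs had 234 counts in the untreated pool, 1 in the RSL-3 pool and 1125 in the RSL-3/LA pool. Each hairpin had 1 enriched sgRNA, that of mir-141 with 683 counts and that of mir-200c with 411, both with 0 in the untreated pool. A different sgRNA of mir-200c went the other way, from 108 counts in the untreated pool to 1 and 31. Both calls were lost under median-of-ratios scaling and kept with trimmed mean of M-values. The mir-200a, mir-200b and mir-429 cluster, of the same family, had 394, 6 and 0 counts over 12 sgRNAs and none enriched.

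The imprinted chromosome 14 list (51 microRNAs, 193 sgRNAs) had 3807, 3833 and 2486 counts, with 1 enriched sgRNA in the RSL-3 pool (0.518%) and 2 in the RSL-3/LA pool (1.04%), against 0.293% and 1.10% of all microRNA sgRNAs. In the untreated pool 21.8% of its sgRNAs had a count, above the 15.8% of all microRNA sgRNAs. Of its RSL-3 counts 3315 were those of the mir-668 sgRNA, and of its RSL-3/LA counts 2009 were those of mir-496. The placental chromosome 19 list (44 microRNAs, 136 sgRNAs) had 1604, 132 and 706 counts, with 0 and 2 enriched sgRNAs (1.47%). With median-of-ratios scaling the numbers were 4 and 1 in the chromosome 14 list and 2 and 0 in the chromosome 19 list. Trimmed mean of M-values gave 2 and 2 in the former and 0 and 0 in the latter.

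Of 1795 microRNAs matched to RefSeq, 1141 (63.6%) lie within a protein-coding gene, strand not considered. Of the 91 with an enriched sgRNA in either survivor library, 57 (62.6%) do. After RSL-3 alone none of the 14 host genes of enriched microRNAs had an enriched sgRNA of its own there, against 2.44% of all genes. In the RSL-3/LA pool 5 of 45 did (11.1%), against 6.72% of all genes. The 5 were C9orf3 with mir-2278, HS6ST3 with mir-4501, KDM5C with mir-6895, RAB40B with mir-4525 and SEC24B with mir-576. SEC24B, a coat protein of transport vesicles, had 2, 156 and 1470 counts, and mir-576 had an sgRNA with 0, 0 and 792. These genes were noted after their values were seen.

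MicroRNA numbers follow the order of naming, and enriched sgRNAs were found in every range of numbers. Over all microRNA sgRNAs the shares enriched were 0.293% in the RSL-3 pool and 1.10% in the RSL-3/LA pool. Names with numbers under 500 together with let-7 had 3 enriched of 1202 sgRNAs (0.250%) in the RSL-3 pool and 17 (1.41%) in the RSL-3/LA pool. Names from 500 to below 1000 had 4 of 1130 (0.354%) and 15 (1.33%), and those from 1000 to below 3000 had 1 of 615 (0.163%) and 4 (0.650%). Names of 3000 and above, often of low expression and weak support as microRNAs, had 12 of 3888 and 39. These late names held 56.8% of the microRNA counts in the untreated pool, 62.1% in the RSL-3 pool and 54.2% in the RSL-3/LA pool, and they made up 56.9% of the microRNA sgRNAs.

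Loss was the usual fate of a common microRNA sgRNA. Of 850 with 10 or more untreated counts, 810 (95.3%) had 0 counts in the RSL-3 pool, against 96.1% of all such sgRNAs, 96.0% of the HGLibA gene sgRNAs and 92.9% of the non-targeting ones. Within the RSL-3/LA pool 798 (93.9%) had 0, against 93.7%, 93.3% and 88.4%. A higher CPM than in the untreated pool was found for 11 (1.29%) and 26 (3.06%) of the 850, against 1.20% and 2.92% of all such sgRNAs. The 5 microRNAs with the most untreated counts illustrate this. mir-1538 had 764, 0 and 336 counts, mir-4662a 482, 0 and 13, and mir-329-2 482, 0 and 0. mir-3926-1 and mir-28 had 454 and 449 untreated counts and 0 in survivors. The 2 copies of mir-4776 kept 1 sgRNA each in the RSL-3/LA pool, at 86, 0 and 297 counts and at 19, 0 and 137 counts, with ratios of 3.41 (2.67 to 4.39) and 7.12 (4.39 to 12.2). They were chosen after their values were seen.

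Finally, the genes that make microRNAs were set beside the microRNAs. The list held 23 genes with 137 sgRNAs, of which 23 (16.8%) had a count in the untreated pool. In the RSL-3 pool 1 (0.730%) was enriched and in the RSL-3/LA pool 4 (2.92%) were, against 0.419% and 1.20% of all sgRNAs. With median-of-ratios scaling 3 and 1 were, and with trimmed mean of M-values 1 and 2. No sgRNA of DROSHA, DGCR8 or DICER1 was enriched by CPM. Of all sgRNAs with 10 or more untreated counts, 96.1% had 0 counts in the RSL-3 pool and 93.7% in the RSL-3/LA pool. DGCR8 had 267 untreated counts and DROSHA 130, each with 0 in both survivor libraries, and DICER1 had 173, 55 and 0. XPO5, which exports the hairpin, had 50, 0 and 0.

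The enriched sgRNAs belonged to PRKRA, AGO4, DDX17 and ZCCHC6. PRKRA, a partner of DICER1 that also activates the kinase PKR, had 0 counts in the untreated pool, 1 in the RSL-3 pool and 3093 in the RSL-3/LA pool, at least 1018-fold. AGO4, an Argonaute, had an sgRNA with 0, 0 and 567 counts, and DDX17, a helicase that works with DROSHA, one with 0, 0 and 205. ZCCHC6, which adds uridines to precursor hairpins, had 204 counts in the RSL-3 pool and 174 in the RSL-3/LA pool, from different sgRNAs, each with 0 in the untreated pool. Of the 4 RSL-3/LA calls, median-of-ratios scaling kept that of PRKRA alone, and trimmed mean of M-values those of PRKRA and AGO4. Of the other genes with 50 or more untreated counts, LIN28A had 141, ZCCHC11 134, SRSF3 110, TNRC6C 104 and TNRC6A 78, each with 0 in survivors. Most common sgRNAs of the whole library were at 0 there too. DDX5 had 95, 73 and 0 counts and TNRC6B 63, 0 and 2.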

How the data were processed

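Genomic DNA of Huh-7 cells was the source of the sgRNA cassettes, which the authors amplified by PCR and sequenced on a MiSeq. The authors deposited raw counts per sgRNA for the 3 libraries, made with MAGeCK per the submitters' processing notes. Trimming and matching settings are not given in the sources used here. The untreated column was identical in both tables and was used as 1 library. MAGeCK's tables per target hold the authors' own scores, p-values, false discovery rates and ranks, and were not used. Total counts were 1466896 (untreated), 1467705 (RSL-3) and 1485991 (RSL-3/LA).

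CPM were computed over all 119461 sgRNAs. Ratios carry exact 95% binomial intervals. The caller was tested on simulated data, but no result of that test is given here. The test is not taken as support for the calls, which rest on unreplicated libraries. The microRNAs named are the 10 with most counts in each survivor library, those with 2 or more enriched sgRNAs or 100 CPM in both libraries, the 5 with most untreated counts, and members of the liver, sterol and lipid, ferroptosis and biogenesis lists with an enriched sgRNA, with 50 or more untreated counts, or that are miR-122, miR-33a or miR-33b. Name-stem families with 10 or more sgRNAs and the most enriched were also named, up to 5 per library. The members and lists were chosen with earlier results of these data known; clusters, seed groups and other microRNAs were chosen after their values were seen. Clusters are microRNAs within 10 kb of each other. The other levels, folds, floors, scalings and denominators tried are given in the closing section. sgRNA sequences were not used here. Software was scipy 1.17.1, pandas 2.3.3 and numpy 2.4.6 under Python 3.11.15.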

Additional observations from a re-analysis of the deposited data

How the results depend on the processing

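The numbers of enriched sgRNAs depended on the level and fold required and on the scaling. In RSL-3 survivors the 20 became 4 at 1000 CPM, 45 at 30 CPM, 9 at a fold of 100, 55 with median-of-ratios size factors and 3 among sgRNAs with an untreated count. In RSL-3/LA survivors the 75 became 6, 126, 41, 15 and 10 under the same settings. A fold of 5, floors of 10 and 1 untreated counts, CPM without DHCR7 sgRNAs and trimmed mean of M-values kept both numbers within 1.5 times. Of the 12 named enriched RSL-3 sgRNAs 12 kept the call under median-of-ratios factors, and of the 22 named RSL-3/LA sgRNAs 11 did. The median-of-ratios factors rest on few sgRNAs with counts in all libraries. The 3 microRNAs with 2 enriched sgRNAs in RSL-3/LA survivors became 0 at 1000 CPM, at a fold of 100, with median-of-ratios factors and among sgRNAs with an untreated count, 1 with trimmed mean of M-values and 5 at 30 CPM. In RSL-3 survivors the 0 became 1 at 30 CPM and with median-of-ratios factors. The share of counts held by microRNA sgRNAs was 10.1%, 2.89% and 7.90% of HGLibA counts in untreated cells, RSL-3 and RSL-3/LA survivors, and 3.12% and 5.07% in the survivors without DHCR7 sgRNAs. Detection in untreated cells was 14.3% at 2 counts and 12.4% at 10. With up to 2 counts taken as lost, the shares of common sgRNAs lost were 96.2% (RSL-3) and 94.6% (RSL-3/LA). No paired analysis was possible because 1 library stands for each treatment, which also leaves none to drop. The cause of these shifts was not tested. The scalings of lists, families and seed groups were chosen after seeing the data. At these depths sgRNAs with 0 untreated counts have no measured fold, only a bound.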
